A study of Mus musculus with 12 samples.

Results

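Potassium channel genes were examined in the tibialis anterior of mice whose myofibres lacked the muscle methyltransferase SMYD1. The members were all genes whose symbol begins with Kcn, which covers the pore-forming subunits and most of the accessory subunits that travel with them, with 3 antisense or overlapping transcripts left out. This gave 94 of the 23923 genes in the files. A gene was tested when it had at least 0.1 FPKM (fragments per transcript length and per mapped fragments of the library) in at least 6 of the 12 libraries. That filter left 30 of the 94 members among 12695 tested genes, namely 12 of 40 voltage-gated subunits, 5 of 13 auxiliary subunits of voltage-gated channels, 5 of 15 inward rectifiers, 5 of 12 calcium-activated or sodium-activated subunits and 3 of 14 two-pore subunits.

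RNA from the tibialis anterior, a fast-twitch muscle of the lower leg, was sequenced in 12 mice aged 6 weeks, labelled as strain C57BL6/J;129S1/SvImJ, with 1 library per mouse. The 6 controls were Myf6 cre/+; Smyd1 flox/+ and the 6 conditional knockouts (CKO) were Myf6 cre/+; Smyd1 flox/-, so that both groups carried the Cre allele and 1 floxed allele. By the study's methods all mice also carried a Rosa26 YFP/+ reporter. The Cre is expressed from the Myf6 gene in myofibres and acts from around birth. The CKO mice therefore also lacked 1 copy of Smyd1 in every cell and throughout development, while controls kept 1 wild-type copy.

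Whole-gene Smyd1 was 33 to 47.1 FPKM in controls and 27.8 to 39.9 FPKM in the libraries labelled CKO, with ranges that overlapped (log2 fold change -0.13, SE 0.12, adjusted p = 0.545). After the libraries were scaled by their median ratio, its log2 fold change was -0.32 (limma, unadjusted p = 0.0018, adjusted p = 0.07965). Which part of the gene the floxed allele loses is not given in the sources used here, so these values do not check the labels. Relative depth, read from the steps between low FPKM values, ran from 0.973 to 1.74 times that of control 1, and fragment numbers given here are estimates from those steps. Myofibre genes were abundant in all libraries (summed FPKM of 8 genes 22650 to 38290), although Ttn was listed at 0 in 8 of 12 libraries while reaching 871 FPKM in another, so an exact 0 can be a failed estimate. CKO 1, CKO 3 and CKO 6 stood apart by slow-fibre genes and by genes of denervated or immature myofibres, as described beside the results they touch. Control 1 stood apart by summed FPKM of fibroblast genes (861, beside 227 to 289 in the other controls), macrophage genes (42.2, beside 11.3 to 19) and adipocyte genes (308, beside 94.6 to 171). The adipocyte sum was mostly Fabp4, at 305 FPKM in control 1. Of the other adipocyte genes, Cfd and Cidec were also highest in control 1 among the controls, while Adipoq, Plin1 and Lep were not. Without control 1, the adjusted counts of members were 4 higher and 1 lower. In whole muscle, fewer cells of a type and less RNA per cell cannot be told apart.

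Potassium channels let potassium leave or enter the cell and so set the resting potential and end each action potential. In a myofibre, inward rectifiers and ATP-sensitive channels act near rest and during fatigue, voltage-gated channels repolarize the membrane after each spike, and calcium-activated channels couple the membrane to the calcium released at contraction. Accessory subunits bind the pore-forming proteins and change their gating, their inactivation or how many of them reach the membrane.

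The promoters of the 3 members that rose in the CKO are shown because they are the sequences nearest to that finding. Each is the 250 bases before the annotated start on the gene's own strand (RefSeq, GRCm38.p6), 5′ to 3′, with capitals marking each CANNTG, the E-box to which basic helix-loop-helix factors such as the myogenic regulators bind.
Kcnn3 (chr3:89519914-89520163, + strand): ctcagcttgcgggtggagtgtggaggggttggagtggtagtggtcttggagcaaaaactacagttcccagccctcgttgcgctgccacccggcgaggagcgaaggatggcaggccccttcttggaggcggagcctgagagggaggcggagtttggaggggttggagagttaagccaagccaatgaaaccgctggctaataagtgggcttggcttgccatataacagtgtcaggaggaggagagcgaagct
Kcnma1 (chr14:24004206-24004455, - strand): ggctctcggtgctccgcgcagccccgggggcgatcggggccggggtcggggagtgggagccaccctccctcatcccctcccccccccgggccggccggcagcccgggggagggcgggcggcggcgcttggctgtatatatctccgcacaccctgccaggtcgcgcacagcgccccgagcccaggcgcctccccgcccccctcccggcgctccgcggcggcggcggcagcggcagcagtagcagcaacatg
Kcne1l (chrX:142306199-142306448, - strand): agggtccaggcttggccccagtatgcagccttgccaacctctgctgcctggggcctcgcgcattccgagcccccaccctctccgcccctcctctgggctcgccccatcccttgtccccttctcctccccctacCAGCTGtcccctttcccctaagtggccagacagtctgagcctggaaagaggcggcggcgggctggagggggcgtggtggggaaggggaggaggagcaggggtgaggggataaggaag
CANNTG reads the same on both strands. The Kcne1l window held 1 match, the CAGCTG form, starting 117 bases before the start, while the Kcnn3 and Kcnma1 windows held none of these letters. Of 32851 mouse promoters of this length, 66.2% held a CANNTG and 13% held a CAGCTG. The member that fell, Kcnab1, has 3 annotated starts with 1 CANNTG before each, and the files do not separate transcripts by start. The Kcnma1 window was 79.2% G or C, the Kcne1l window 68% and the Kcnn3 window 58.8%, beside a median of 52.4% over all promoters.

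Levels in control muscle were led by a small number of subunits. The 8 members with the highest control means held 77.2% ± 1.84 of all FPKM assigned to the 94 members in controls and 72.9% ± 3.67 in the CKO (SD, n = 6 each). Kcna7, a voltage-gated subunit found mainly in striated muscle, was the highest at 15.5 ± 0.69 FPKM (SD, n = 6). Kcnj2, the inward rectifier that is mutated in Andersen-Tawil periodic paralysis, followed at 12.4 ± 2.87 FPKM, and its range over the 6 controls overlapped that of Kcna7. Next came 5 genes between 5.35 and 7.67 FPKM, whose control values overlapped each other: Kcnc1, a delayed rectifier of fast kinetics, Kcnc4, which inactivates quickly, Kcng4, a silent subunit that joins other voltage-gated subunits, Kcnj11, the pore of the ATP-sensitive channel, and Kcnj12, a second strong inward rectifier. In all, 12 members had a control mean of at least 1 FPKM. By class, voltage-gated subunits made up 55.1% ± 4.68 of the summed member FPKM in controls and inward rectifiers 33.6% ± 3.97.

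**Figure D1:**
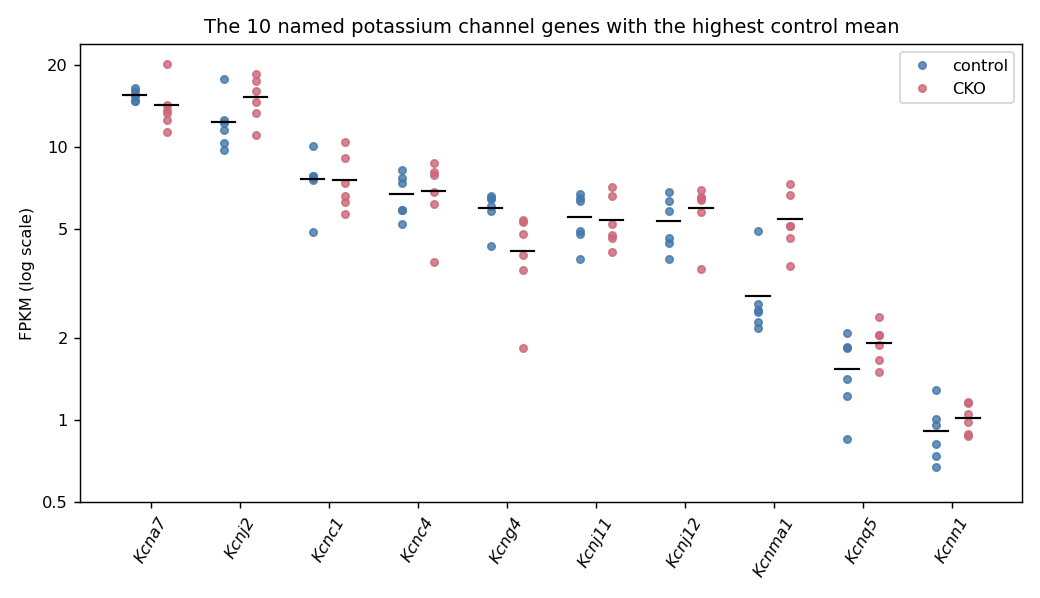
FPKM on a log scale in each mouse for the 10 named potassium channel genes with the highest control mean, in order of that mean, with controls in blue, CKO in red and black lines at the group means. The groups overlap for every gene plotted; Kcnma1 is the only one of them past an adjusted p of 0.05.

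With the FPKM as deposited, 3 members rose in the CKO at an adjusted p below 0.05 (limma on log2(FPKM + 0.1), Benjamini-Hochberg adjustment over all 12695 genes), namely Kcne1l, Kcnn3 and Kcnma1, and 1 fell, Kcnab1. These are 10% and 3.33% of the 30 tested members, beside 2.02% of all tested genes called higher and 0.268% called lower. At an unadjusted p below 0.05 the counts were 5 higher, with Kcna1 and Kcnk2 added, and 2 lower, with Kcng4 added, while the background was 18.1% higher and 1.76% lower. So the share of members called higher at the unadjusted threshold, 16.7%, was near the background. The other 23 tested members did not pass either threshold. Of the 30 tested members, only Kcna1 had all 6 CKO values above all 6 control values, as did 2.23% of tested genes, and none of the 30 had all CKO values below the controls, as did 0.189% of tested genes.

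The direction of the remaining members depended on scaling. The median log2 fold change over all tested genes was 0.18 and over the 30 members 0.11, with 12 members above the all-gene median and 18 below it. After the libraries were scaled by their median ratio, the all-gene median was 0.01 and the members' median -0.06. The scaled counts at an unadjusted p below 0.05 were 4 higher, beside a background of 6.62%, and 5 lower, beside a background of 7.44%. Kcna7 and Kcne4 were among those added to the lower side. The scaled adjusted p was 0.0601 for Kcnma1, 0.0709 for Kcne1l and 0.0731 for Kcnn3, so their calls ended under this scaling, and it was 0.0278 for Kcnab1, whose call held. The share of all tested genes past the adjusted threshold after scaling was not counted.

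Among the calcium-activated subunits, 2 of 5 tested members rose and none fell. Kcnma1, the large-conductance (BK) channel that opens on both voltage and calcium, was 2.17, 2.51 and 4.94 FPKM at the lowest, median and highest of the controls and 3.69, 5.17 and 7.35 FPKM in the CKO. Of the 6 CKO values, 4 lay above every control, and the overlap came from control 3, at 4.94 FPKM beside 2.17 to 2.67 FPKM in the other 5. Its mean went from 2.85 ± 1.04 to 5.46 ± 1.35 FPKM (SD, n = 6), 1.92-fold higher (log2 fold change 0.94, SE 0.20, adjusted p = 0.0253). Kcnn3, a small-conductance channel known from immature and denervated muscle, was 0.258, 0.31 and 0.465 FPKM in controls and 0.333, 1.18 and 1.6 FPKM in the CKO. CKO 1, CKO 3 and CKO 6 were at 1.58, 1.6 and 1.54 FPKM, CKO 2 and CKO 4 at 0.775 and 0.817 FPKM, and CKO 5 lay within the control range. The mean of Kcnn3 was 0.335 ± 0.0815 FPKM in controls and 1.11 ± 0.538 FPKM in the CKO, 3.31-fold higher (log2 fold change 1.34, SE 0.30, adjusted p = 0.0341). In contrast, Kcnn1, another small-conductance subunit, was 0.914 ± 0.223 and 1.02 ± 0.126 FPKM, with an interval for its log2 fold change of -0.18 to 0.51. The remaining 2 tested members of the class had log2 fold changes of -0.47 and 0.22 and did not pass either threshold.

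The summed level of the 12 calcium-activated members went from 5.52 ± 1.05 to 8.69 ± 1.65 FPKM, of which Kcnma1 was the greater part in each group. Their share of the summed member FPKM was 6.86% ± 0.985 in controls and 10.1% ± 1.58 in the CKO. The summed values ran from 4.65 to 7.58 FPKM in controls and from 6.5 to 10.7 FPKM in the CKO, so the groups overlapped.

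The auxiliary subunits of voltage-gated channels held the member with the largest increase and the one with the largest decrease among the 30 on the scale of log2(FPKM + 0.1). Kcne1l, also called Kcne5, encodes a single-pass subunit that modifies Kcnq1 channels. It was 0.192, 0.501 and 0.649 FPKM at the lowest, median and highest of the controls and 0.579, 1.88 and 2.5 FPKM in the CKO. In 5 of 6 CKO mice it was above every control, and in CKO 4 it lay within their range. The mean was 0.475 ± 0.165 FPKM in controls and 1.64 ± 0.782 FPKM in the CKO, 3.45-fold higher (log2 fold change 1.50, SE 0.33, adjusted p = 0.0322). By the estimated depth this stood for about 3 to 12 fragments per control library and 12 to 69 per CKO library.

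Kcnab1, a cytoplasmic beta subunit that speeds the inactivation of channels of the Kcna family, moved the other way. Its controls were 0.422, 0.687 and 0.953 FPKM at the lowest, median and highest, and its CKO values 0.0989, 0.254 and 0.48 FPKM. In 5 of 6 CKO mice it was below every control, and CKO 2 overlapped them. The mean was 0.689 ± 0.222 FPKM in controls and 0.258 ± 0.139 FPKM in the CKO (log2 fold change -1.18, SE 0.27, adjusted p = 0.0379), or about 19 to 60 and 4 to 23 fragments per library. Kcne4, which restrains Kcnq1 and Kcna channels, was 0.622 ± 0.285 and 0.367 ± 0.127 FPKM and did not pass either threshold (log2 fold change -0.56, unadjusted p = 0.0824). Kcnrg, a soluble protein that hinders the assembly of voltage-gated channels, was 0.585 ± 0.156 and 0.653 ± 0.219 FPKM, and the 1 other tested auxiliary member had a log2 fold change of 0.04.

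**Figure D2:**
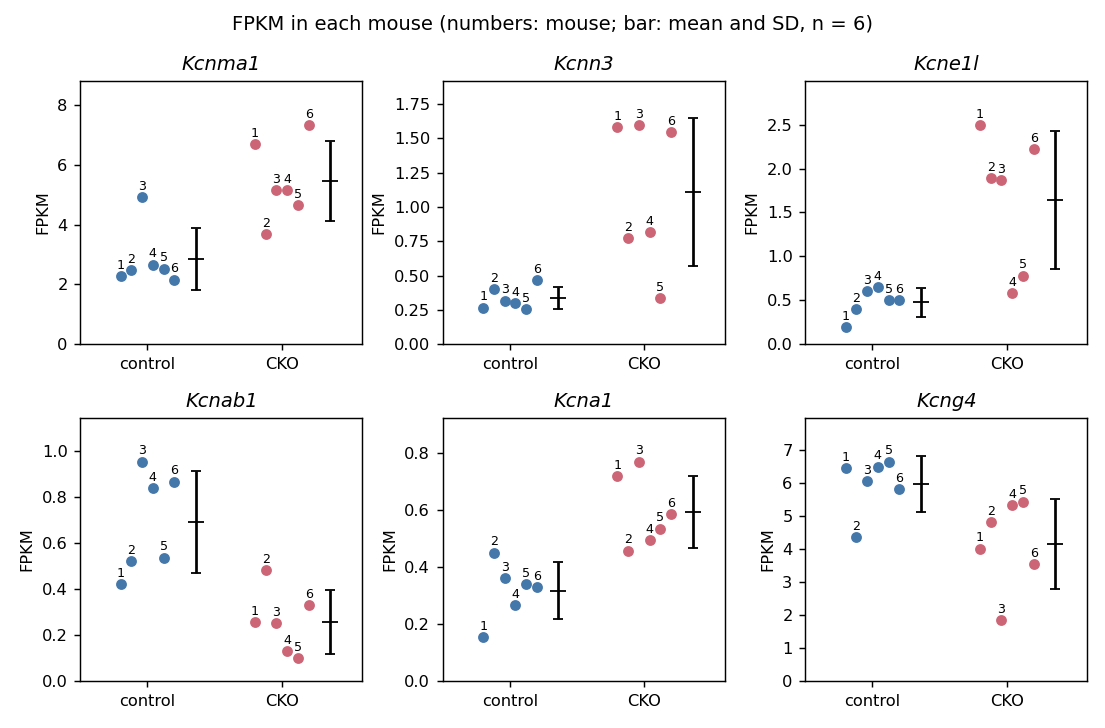
FPKM in each mouse for the 4 members past an adjusted p of 0.05 and for Kcna1 and Kcng4, with controls in blue, CKO in red, mouse numbers above the points and bars at the mean and SD of 6 mice. Kcna1 is the only gene whose groups do not overlap, and CKO 1, CKO 3 and CKO 6 are the highest 3 for Kcnn3 and the lowest 3 for Kcng4.

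Of the 12 tested voltage-gated subunits, none passed the adjusted threshold. Kcna1, a delayed rectifier best known from myelinated axons, was 0.155, 0.334 and 0.45 FPKM at the lowest, median and highest of the controls and 0.458, 0.56 and 0.77 FPKM in the CKO. The lowest CKO value thus lay just above the highest control value (log2 fold change 0.75, SE 0.21, adjusted p = 0.0669, unadjusted p = 0.00223). Kcna1 is low in this muscle, about 6 to 21 fragments per control library and 21 to 52 per CKO library.

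Kcng4 was the most abundant member with a lower value in the CKO at the unadjusted threshold. Its controls were 4.35, 6.25 and 6.65 FPKM at the lowest, median and highest, and the CKO values 1.83, 4.41 and 5.43 FPKM. In CKO 1, CKO 3 and CKO 6 it was below every control, and the other 3 CKO mice lay within the control range. The mean was 5.97 ± 0.85 FPKM in controls and 4.16 ± 1.36 FPKM in the CKO (log2 fold change -0.58, SE 0.22, adjusted p = 0.161, unadjusted p = 0.0179).

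The most abundant voltage-gated subunits did not pass either threshold with the FPKM as deposited. Kcna7 was 14.8, 15.5 and 16.5 FPKM at the lowest, median and highest of the controls and 11.4, 13.5 and 20.2 FPKM in the CKO. In 5 CKO mice it lay below every control and in CKO 5 above every control, so the spread of the CKO, 3.08 FPKM (SD), was wider than that of the controls, 0.69 FPKM (log2 fold change -0.15, SE 0.12, unadjusted p = 0.237; after median-ratio scaling -0.33, unadjusted p = 0.0174). Kcnc1 was 7.67 ± 1.66 and 7.61 ± 1.83 FPKM, and Kcnc4 6.74 ± 1.21 and 6.94 ± 1.8 FPKM. The 95% intervals of their log2 fold changes were -0.38 to 0.36 and -0.38 to 0.41. Kcnq5, a subunit of slow non-inactivating channels, was 1.55 ± 0.461 and 1.92 ± 0.315 FPKM. The 6 tested voltage-gated members not named here had log2 fold changes between -0.41 and 0.30. The summed FPKM of the 40 voltage-gated members was 44.1 ± 4.2 in controls and 41.7 ± 3.92 in the CKO, and the median log2 fold change of the 12 tested was -0.01.

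No inward rectifier of the 5 tested passed either threshold. Kcnj2 was 9.77, 11.9 and 17.8 FPKM at the lowest, median and highest of the controls and 11.1, 15.4 and 18.6 FPKM in the CKO (log2 fold change 0.30, SE 0.15, unadjusted p = 0.0677). Its groups overlapped over most of their range. Kcnj12 was 5.35 ± 1.19 and 5.97 ± 1.23 FPKM, and Kcnj11 5.54 ± 1.15 and 5.43 ± 1.2 FPKM. The interval of the log2 fold change was -0.22 to 0.53 for Kcnj12 and -0.38 to 0.32 for Kcnj11. The summed level of the 15 inward rectifiers was 27 ± 4.7 FPKM in controls and 30.5 ± 2.71 FPKM in the CKO, and the 5 log2 fold changes ran from -0.03 to 0.30.

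The two-pore subunits, which carry background potassium leak, were the lowest class, with a sum of 0.908 ± 0.269 FPKM over 14 members in controls and 1.19 ± 0.264 FPKM in the CKO. Kcnk2, a leak channel gated by membrane stretch, was 0.0927, 0.341 and 0.387 FPKM at the lowest, median and highest of the controls and 0.24, 0.498 and 0.551 FPKM in the CKO. In 5 of 6 CKO mice it was above every control, and CKO 5 lay within their range (log2 fold change 0.59, SE 0.26, adjusted p = 0.218, unadjusted p = 0.0366). Kcnk6 was 0.33 ± 0.183 and 0.385 ± 0.179 FPKM. Kcnk1 passed the filter with few fragments, at most 5 per control library and 6 per CKO library, and was listed at 0 in 2 controls and 1 CKO.

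Of the 64 untested members, 11 were listed at 0 in all 12 libraries, and the other 53 had a value in at least 1 library. Among untested channel genes known from muscle, Kcne3, a small subunit found with Kcnc4 in muscle, was listed at 0 in 5 controls and at 0.0891 FPKM in control 5, and was at 0.069 to 0.198 FPKM in 5 CKO mice and at 0 in CKO 5. The two-pore genes Kcnk5 and Kcnk13 reached at most 0.155 and 0.119 FPKM. Such values stand for few fragments, and these genes were not compared between the groups.

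Marker lists of other cell types and fibre states were read at the unadjusted threshold, at which 18.1% of all tested genes were called higher and 1.76% lower. After median-ratio scaling these shares were 6.62% and 7.44%. Of 7 slow-fibre genes, 6 were called higher (5 after median-ratio scaling, with 1 lower), and none passed the adjusted threshold. Their summed FPKM was 18.6 to 51.9 in controls and 26.6 to 292 in the CKO, with CKO 1 at 142, CKO 3 at 85.6 and CKO 6 at 292. Those 3 mice were also the highest 3 for Kcnn3 and the lowest 3 for Kcng4. Genes of denervated or immature myofibres were called higher for 5 of 5 tested (4 after scaling), 2 of them at the adjusted threshold. Their sum was 5.97 to 12.9 FPKM in controls and 12.5 to 50.8 FPKM in the CKO, with Chrng at or near 0 and untested. CKO 1, CKO 3 and CKO 6 were again the highest 3, at 36.6, 32.4 and 50.8 FPKM. The other CKO mice were at 12.5 to 19 FPKM. Muscle stem cell genes were called higher for 3 of 5 (2 after scaling), with sums of 3.96 to 11.7 and 7.17 to 14 FPKM. Adipocyte genes were called higher for 2 of 4 tested (1 after scaling), with sums of 94.6 to 308 and 95 to 211 FPKM, and fibroblast genes for 2 of 7 (1 after scaling), with sums of 227 to 861 and 302 to 508 FPKM. Schwann cell genes were called higher for 3 of 8 (0 after scaling), with sums of 12.2 to 17.1 and 13.8 to 22.4 FPKM. Smooth muscle genes, whose cells also express Kcnma1, were called higher for 1 of 8 (0 after scaling), with sums of 53.6 to 91.6 and 59.4 to 79.7 FPKM. None of 7 endothelial genes (30.7 to 45 and 29.9 to 50.1 FPKM) and none of 6 macrophage genes (11.3 to 42.2 and 15.4 to 24.2 FPKM) was called in either direction. Of 7 tested myofibre genes, 1 was called higher and 1 lower, and 1 and 4 after scaling. Sums overlapped between the groups in each of these lists. The part of these markers in the results was not tested.

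Without CKO 1, CKO 3 and CKO 6, no member passed the adjusted threshold, with 3 CKO mice left. In this smaller comparison Kcnab1 had an adjusted p of 0.305 (limma). The share of all tested genes called there was not counted, so the loss cannot be read as one of the members alone. The log2 fold changes then were 0.71 for Kcnn3, 0.94 for Kcne1l, 0.69 for Kcnma1 and -1.36 for Kcnab1, with unadjusted p of 0.0281, 0.0242, 0.0126 and 0.00255. Kcng4 went to -0.19 (unadjusted p = 0.244) and Kcna1 to 0.55 (unadjusted p = 0.0593). These changes between the sets of mice were not tested.

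**Figure D3:**
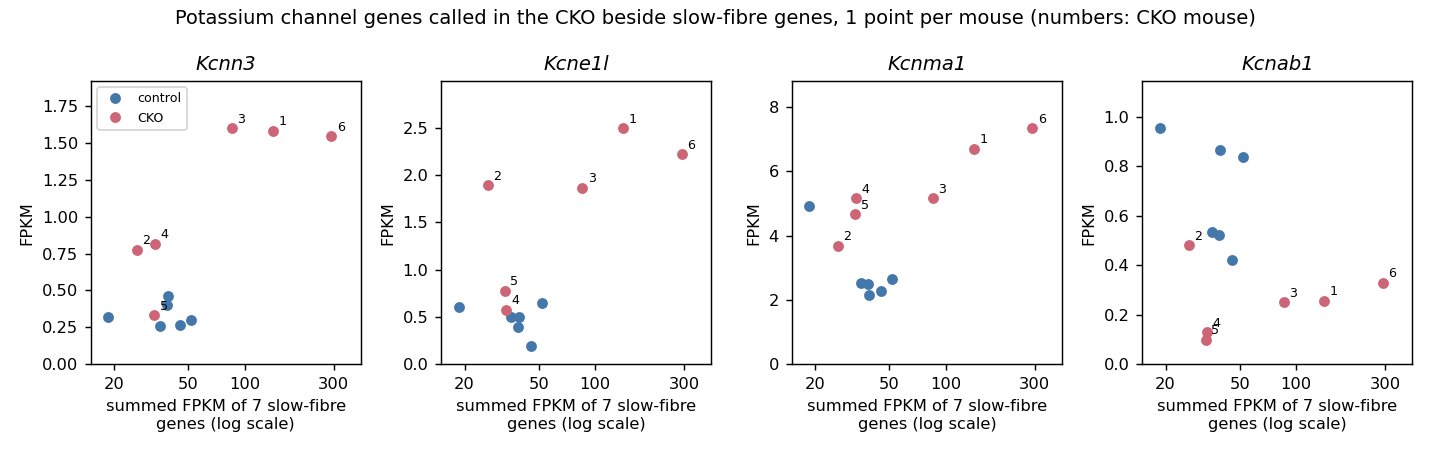
FPKM of the 4 members past an adjusted p of 0.05 against the summed FPKM of 7 slow-fibre genes on a log scale, 1 point per mouse, with controls in blue, CKO in red and CKO mouse numbers beside the points. CKO 1, CKO 3 and CKO 6 lie to the right, at 142, 85.6 and 292 FPKM of slow-fibre genes, and are the highest 3 for Kcnn3 but not the lowest 3 for Kcnab1. The same 3 mice are also the highest for genes of denervated or immature myofibres, which are not plotted.

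The 4 adjusted calls were close to the threshold. The call of Kcnma1 ended when any 1 of control 2, 4, 5 or 6 or CKO 1, 3 or 6 was left out, with an adjusted p of 0.0537 to 0.0721. For Kcnn3 the same held for control 2, 3, 4 or 5 or CKO 1, 3 or 6 (0.0587 to 0.0926), for Kcne1l for control 2, 5 or 6 or CKO 1, 2, 3 or 6 (0.0518 to 0.0869), and for Kcnab1 for control 2, 3, 4, 5 or 6 or CKO 1, 3, 4 or 6 (0.054 to 0.0899). All 4 stayed at an unadjusted p below 0.05, with their direction, in each of the 12 omissions. In the GENCODE annotation, exons of Kcnma1 share 1016 bases with an opposite-strand transcript and those of Kcnab1 share 201. Of the 30 tested members, 11 share exon bases with another gene, and whether the quantification used strand is not given in the sources used here.

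Other genes that handle potassium were followed as a list of 28, of which 18 were tested. At the adjusted threshold 1 was higher, Slc12a2, the cotransporter that brings sodium, potassium and chloride into the cell, and none was lower. Slc12a2 was 10.7, 14.3 and 15.4 FPKM at the lowest, median and highest of the controls and 15.7, 21.5 and 26.7 FPKM in the CKO (log2 fold change 0.61, SE 0.12, adjusted p = 0.0189). The gene had all 6 CKO values above all 6 control values, as did 2.23% of tested genes. After median-ratio scaling its adjusted p was 0.0897, and the adjusted count of higher genes in the list was 0 without CKO 1 and 3 without control 1. At an unadjusted p below 0.05, 4 of 18 were higher and 0 lower, beside a background of 18.1% and 1.76%, so the share called higher was near the background. The other 3 were Tmem38a and Tmem38b, counter-ion channels of the sarcoplasmic reticulum, with log2 fold changes of 0.29 and 0.34, and Fxyd1, the regulator of the muscle sodium pump, with 0.28. None of these 3 passed after scaling, when the list had 1 higher and 2 lower, beside a background of 6.62% and 7.44%. Among the most abundant of the list was Tmem38a, at 121 ± 13.5 FPKM in controls and 149 ± 20.8 FPKM in the CKO. Fxyd1 was 81.3 ± 17.6 and 97.2 ± 9.94 FPKM. The median log2 fold change of the 18 tested was 0.21, beside 0.18 over all tested genes.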

How the data were processed

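RNA of 12 tibialis anterior muscles, 6 control and 6 CKO, was sequenced after ribosomal RNA depletion, with 1 library per mouse. The authors aligned reads with bowtie2 and TopHat2 2.0.10 to mm9 (per the processing notes), discarded reads with several matches, and computed the deposited FPKM with Cufflinks 2.1.1. The annotation is not given in the sources used here, and the authors' own test used counts. Each file held 23950 rows, and 27 rows with a date in the symbol column were dropped. Positions and sequences came from RefSeq (GRCm38.p6), where 69 of 94 members matched, and lengths and exon overlaps from GENCODE mouse release M21.

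The groups were compared in limma 3.58.1 (R 4.3.3), using a trended prior variance without a block, on log2(FPKM + 0.1), two-sided, with Benjamini-Hochberg adjustment over 12695 genes, and the code was tested on simulated data. Fold changes on this scale understate those of low genes. Class medians and sums are descriptions with no test. The text names members past an adjusted or unadjusted p of 0.05, the 3 most abundant tested members of each class, and a list of channel genes known from muscle. A few genes covered by this choice are left unreported but count in every fit and total. Members and lists were chosen with earlier results of these data known. Alternatives were another pseudocount, filter, scaling, a length and GC correction, a replicate block, sample weights, no trend and each library left out. After the group mean of each gene was subtracted, same-numbered control and CKO libraries correlated at -0.0861 to 0.164 (2 of 6 pairs above 0.1). Numbers were therefore not taken to pair mice. The files give no counts, so fragments are estimates and no counting interval is given.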

Additional observations from a re-analysis of the deposited data

Results flagged for a closer look

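For each named member, the highest and lowest library of each group of 6 was compared with the rest, and 6 of 44 groups held a library far from the others. Normally distributed values would give about 1 in 20. FPKM need not be so distributed, and a group with 5 zeros, as for Kcne3, is flagged by any other value. The 2 shares are therefore not comparable. In controls, Kcnma1 was 4.94 FPKM in control 3 and 2.17 to 2.67 FPKM in the other 5, and Kcnj2 was 17.8 FPKM in the same mouse and 9.77 to 12.6 FPKM in the others. Kcng4 was 4.35 FPKM in control 2 and 5.82 to 6.65 FPKM in the other controls. Kcne3 was 0.0891 FPKM in control 5 and listed at 0 in the other 5. In the CKO, Kcna7 was 20.2 FPKM in CKO 5, beside 11.4 to 14.3 FPKM in the other 5, and Kcnj12 was 3.59 FPKM in CKO 2, beside 5.77 to 6.99 FPKM. Leaving out control 3 took the log2 fold change of Kcnma1 to 1.10 (limma, adjusted p = 0.00659).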

How the results depend on the processing

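Of 426 values of single genes under 23 alternatives, 337 kept their direction and side of the adjusted threshold, 49 fell short of it, 2 passed it and 38 changed sign. Only the 4 members called in the main fit could fall short. Kcnab1 stayed below an adjusted p of 0.05 in 11 of 22 alternatives and Kcne1l in 8 of 22. Kcnma1 did so in 12 of 23 and Kcnn3 in 9 of 22. Members called at the adjusted threshold, 3 higher and 1 lower, became 0 and 1 under median-ratio scaling, alone or with the replicate block, and under quantile normalization, 1 and 1 with the length and GC correction, 1 and 0 with a filter at 1 FPKM, 1 and 0 with no filter (more genes tested), and 0 and 0 without CKO 1, CKO 3 and CKO 6, a choice made after seeing the data. Kcnn3, Kcne1l, Kcnab1, Kcna1 and Kcnk2 did not pass the filter at 1 FPKM. They were not tested there, so the smaller counts under that filter, also at the unadjusted threshold, are not lost calls. Over single omissions the members called at the adjusted threshold ran from 0 to 4 higher and 0 to 1 lower. The share of all tested genes called at the adjusted threshold was counted only with the FPKM as deposited. Unadjusted counts, 5 and 2, became 1 and 1 with a filter at 1 FPKM, 9 and 4 with no filter, and 3 and 1 without those 3 CKO, and the lower count became 5 under scaling, 6 under scaling with the block, 6 under quantile normalization and 6 with the length and GC correction. The replicate block alone gave 2 higher and 1 lower at the adjusted threshold, since Kcne1l went to 0.0562. By deviations from the group means, 2 of the 6 controls correlated best with the CKO library of their own number.

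Among other potassium-handling genes, the adjusted count of 1 higher became 4 with sample weights, 0 with scaling, quantile normalization, the length and GC correction or without those 3 CKO, and 0 to 3 over single omissions. Their unadjusted 4 higher became 1 under scaling, scaling with the block or the correction, 2 without those CKO, and 2 to 6 over omissions, and the 0 lower became 1 with weights, 2 with scaling (with the block too) or the correction, and 0 to 1 over omissions. Class medians moved to -0.21 for voltage-gated subunits with the correction, 0.94 (filter at 1 FPKM) and 0.0061 (quantile) for calcium-activated, and 0.096 for two-pore with a pseudocount of 1. The 0.94 is the value of Kcnma1 alone, the only calcium-activated member left by that filter.

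Signs changed only for members past no threshold. Under median-ratio scaling (with or without the block), the correction and quantile normalization respectively, the log2 fold change was -0.17, -0.17 and -0.13 for Kcnc4, -0.0307, -0.0299 and -0.0126 for Kcnj12, -0.0061, -0.035 and -0.0515 for Kcnn1, and -0.0436, -0.0439 and -0.11 for Kcnrg, and it was -0.0161 for Kcnk6 under quantile normalization. Without those 3 CKO, Kcna7 was 0.0159 and Kcnc4 -0.12. Over single omissions Kcnc1 ran from -0.13 to 0.073, Kcnc4 from -0.0622 to 0.17, Kcnj11 from -0.12 to 0.043 and Kcnrg from -0.00103 to 0.23. The cause was not tested. Depth limits genes that rest on few fragments, and FPKM alone does not show which these are, because it is per transcript length. At a control mean of 0.475 FPKM, Kcne1l stood for about 3 to 12 fragments per control library. Kcnn3, at 0.335 FPKM, stood for about 23 to 61.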
